A study of Mus musculus with 6 samples.

Results

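Solute carriers (SLC proteins) are membrane transporters that move amino acids, sugars, ions, metals, vitamins, nucleotides and lipids across the plasma membrane and across the membranes of mitochondria, lysosomes, the endoplasmic reticulum and the Golgi. Most carry their cargo down its gradient or couple it to sodium, protons or a counter-substrate, and the family number in a gene name groups carriers by sequence. In vessels they supply endothelial cells with amino acids and hexoses, clear adenosine from the lumen and pass nutrients to the tissue behind the wall. The genes described here were chosen from a table of 339 genes with a name made of Slc and a number. Kept were those with at least 1 FPKM (fragments per kilobase of a transcript and for a fixed number of fragments mapped in the library) in 3 or more of 6 libraries, which left 195. Of these, 11 were set aside by name, so that 184 SLC genes of 17463 gene entries are described, and 144 others did not reach the filter. The values that chose them are levels, not the difference between the genotypes, but a gene that passed through 1 genotype only had to differ.

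The libraries were made from untreated MLECs, endothelial cells that were isolated from mouse lungs and grown in culture. In 3 libraries the genotype was HEY1-3KR KI, a knock-in of the 3KR form of HEY1, and in 3 it was HEY1-WT KI, a knock-in of the WT form. By the series' design both knock-ins (named iEC-KI) were made in mice that also carried a knockout of Hey1 (named iEC-KO), and these names are not spelled out. HEY1 is a repressor of transcription that acts downstream of Notch, and by the title the study concerns its modification by SUMO, a small protein tag. The labels do not say what 3KR stands for, which promoter drove the Cre or the knock-in, how old the mice were, or whether replicates are separate mice or cultures. P-values therefore rest on the spread between these libraries alone, which may be technical, and anything else that all 3 libraries of a genotype had in common cannot be told apart from that genotype.

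Markers of several cell types were measured in these cultures. Calls are those of the limma fit described below, in which 29.9% of all genes tested were higher and 23.4% lower. The 10 endothelial markers summed to 0.133% to 0.139% of all FPKM in HEY1-3KR KI and 0.0763% to 0.0818% in HEY1-WT KI, with 9 of 10 called higher. The 10 macrophage markers summed to 1.93% to 2.03% in HEY1-3KR KI and 1.52% to 1.53% in HEY1-WT KI, with 10 of 10 higher. Most of this sum was Lyz2, at 3482 ± 121 FPKM in HEY1-3KR KI and 3138 ± 51.3 FPKM in HEY1-WT KI (SD, n = 3), 1.11-fold higher. The fibroblast markers summed to 0.42% to 0.428% in HEY1-3KR KI and 0.216% to 0.223% in HEY1-WT KI, with 5 of 5 tested higher. The epithelial markers summed to 0.131% to 0.142% in HEY1-3KR KI and 0.0372% to 0.042% in HEY1-WT KI, with 7 of 7 higher. Of these Epcam reached 1 FPKM in HEY1-3KR KI alone, so the filter favoured a rise in it. The smooth muscle and pericyte markers (0.382% to 0.387% in HEY1-3KR KI, 0.374% to 0.38% in HEY1-WT KI) had 1 of 5 higher and 2 lower, and the mesothelial markers (0.0292% to 0.0305% in HEY1-3KR KI, 0.0475% to 0.0491% in HEY1-WT KI) 2 of 4 higher and 1 lower. Most of the mesothelial sum was Msln, which fell, at 58.8 ± 0.118 FPKM in HEY1-3KR KI and 113.6 ± 0.932 FPKM in HEY1-WT KI (SD, n = 3). Upk3b, Lrrn4 and Wt1 read higher in HEY1-3KR KI without overlap, though Wt1 was not called. Of these lists no marker was at 0 in every library, and none of the 3 T cell and 3 B cell markers reached the filter. The part of such cells in the values below was not tested, and fewer cells of a type cannot be told apart from less RNA per cell.

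SLC genes moved in both directions in about equal number. Each gene was compared between HEY1-3KR KI and HEY1-WT KI with limma on log2(FPKM + 1), fitted on all 11432 genes past the filter, and a gene was called where its Benjamini-Hochberg adjusted p was below 0.05. Of the 184 SLC genes, 60 were higher (32.6%) and 51 lower (27.7%) in HEY1-3KR KI, and 73 were not called. Among all genes tested 29.9% were higher and 23.4% lower, 53.2% in all, so the SLC shares lie near this background. With another scaling of the libraries the balance turned to 53 higher and 56 lower (median of ratios) or 50 higher and 60 lower (quantile). The median log2 fold change was -0.01 for the SLC genes, between -0.01 and 0.01 with any single library left out, and 0.02 for all genes, and the median size of the change regardless of sign was 0.20 and 0.17. At 1.5-fold or more on the log2 scale 7 of the 184 SLC genes were higher and 14 lower. Of all 11432 genes tested 835 (7.3%) were higher and 452 (3.95%) lower. At this limit the SLC genes therefore leaned lower, while all genes leaned higher. The 2 genotypes did not overlap in 118 SLC genes, and in 61.1% of all genes tested.

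**Figure D1:**
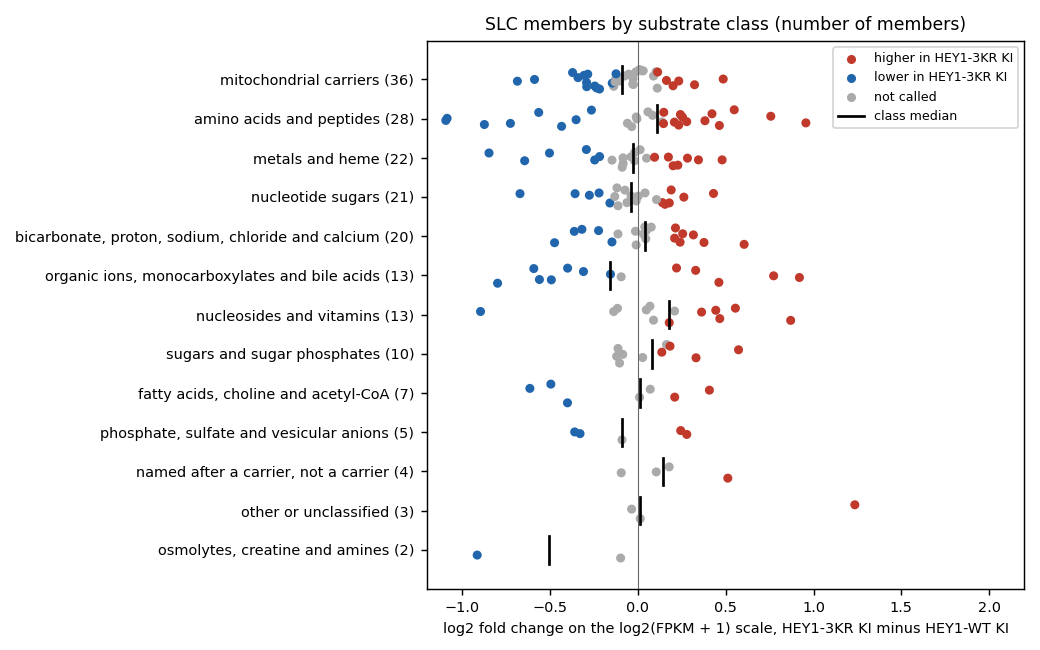
Log2 fold change of each of the 184 SLC genes (x axis, log2(FPKM + 1) scale, HEY1-3KR KI minus HEY1-WT KI) by substrate class (y axis, number of members in brackets). Each point is a gene, coloured by its call in limma, and the black bar is the class median. Each class of 5 or more members except sugars has called genes on both sides of 0, and the mitochondrial class has 13 lower and 6 higher.

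The levels of the SLC genes spanned 0.903 to 271 FPKM, with a median of 5.48 FPKM over the 6 libraries. There were 83 genes under 5 FPKM, 75 between 5 and 20 FPKM, and 26 at 20 FPKM or more. The 10 highest held 41.5% of the summed FPKM of the 184. In order of level these were Slc25a5, Slc48a1, Slc25a4, Slc3a2, Slc39a1, Slc25a3, Slc39a7, Slc43a3, Slc25a39 and Slc25a1, so that 5 of the 10 are carriers of the inner mitochondrial membrane. Neighbours in this order lie close together, such as Slc25a3 at 74.1 ± 2.77 FPKM in HEY1-3KR KI and 86.3 ± 2.42 FPKM in HEY1-WT KI and Slc39a7 at 74.7 ± 8.41 FPKM in HEY1-3KR KI and 75.4 ± 3.11 FPKM in HEY1-WT KI (SD, n = 3 libraries). The summed level of the 184 was 2421, 2363 and 2390.0 FPKM in HEY1-3KR KI, against 2577, 2537 and 2523 FPKM in HEY1-WT KI, a change of -6.04% that left the genotypes apart. Slc48a1 alone made up a large part of that difference. Without it the sums were 2313, 2261 and 2283 FPKM in HEY1-3KR KI, against 2387, 2346 and 2328 FPKM in HEY1-WT KI, a change of -2.90%.

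**Figure D2:**
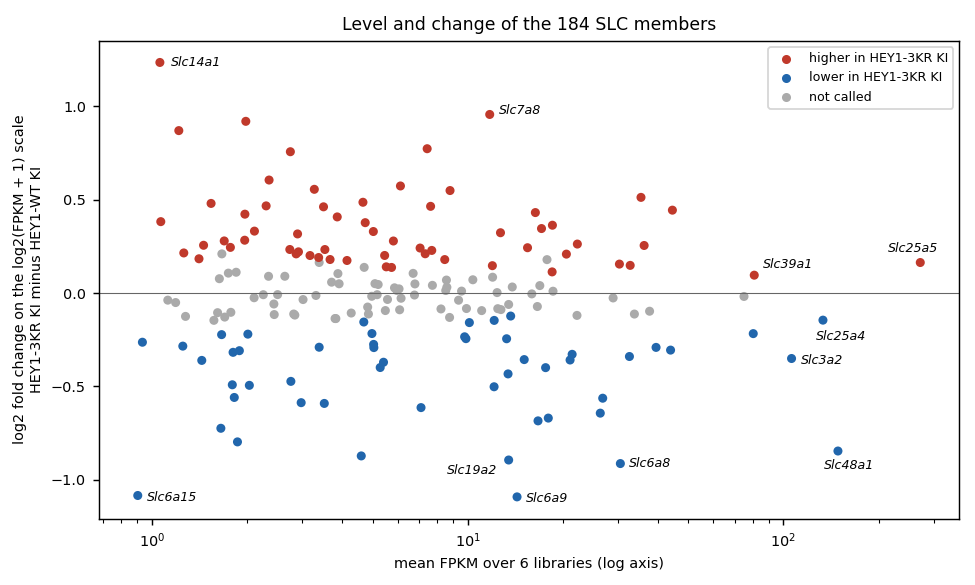
Mean level over the 6 libraries (x axis, FPKM, log axis) and log2 fold change (y axis, log2(FPKM + 1) scale, HEY1-3KR KI minus HEY1-WT KI) of the 184 SLC genes, coloured by call. Slc48a1 stands out among abundant genes, at a mean of 149 FPKM and a log2 fold change of -0.85, and the lowest genes hold some of the largest changes.

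The steepest differences by ratio of means were in 10 genes at 2-fold or more, 5 in each direction. Among those higher in HEY1-3KR KI were Slc14a1 (8.32-fold), Slc28a2 (3.31-fold), Slc38a4 (2.07-fold) and Slc7a8 (2.06-fold). Lower in HEY1-3KR KI were Slc6a15 (7.24-fold), Slc16a11 (2.4-fold), Slc1a6 (2.31-fold), Slc6a9 (2.26-fold) and Slc7a3 (2.11-fold). Of the 5 lower genes 4 carry amino acids. Slc14a1, Slc28a2, Slc43a1, Slc6a15 and Slc7a4 reached 1 FPKM in every library of 1 genotype and in none of the other, so the filter itself favoured a difference in them. Without these 5, 57 SLC genes were higher and 49 lower of 179. Just inside the filter stood Slc7a4, Slc35g1 and Slc25a26, whose third-highest library read 1.06, 1.08 and 1.23 FPKM. Just outside it were Slc5a3, Slc4a11 and Slc2a6, at 0.962, 0.953 and 0.93 FPKM.

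The promoters of 3 genes that fell in HEY1-3KR KI are printed to show the motifs counted below. Slc1a4 and Slc6a9 are amino acid carriers known as targets of ATF4, the transcription factor of the amino acid response, and Slc20a1 is a phosphate carrier whose window holds CACGTG at 2 places, a palindrome that HEY proteins and other basic helix-loop-helix factors can bind. Each window runs from 250 bases before to 50 bases after a start site in RefSeq on GRCm38.p6, 300 bases in all. Slc6a9 has 3 such windows and Slc20a1 2, of which 1 each is shown. Capitals mark TGATGNAA on either strand in Slc1a4 (chr11:20332664-20332963, minus strand), CACGCG on either strand in Slc6a9 (chr4:117835008-117835307, plus strand) and CACGTG in Slc20a1 (chr2:129198523-129198822, plus strand).
Slc1a4: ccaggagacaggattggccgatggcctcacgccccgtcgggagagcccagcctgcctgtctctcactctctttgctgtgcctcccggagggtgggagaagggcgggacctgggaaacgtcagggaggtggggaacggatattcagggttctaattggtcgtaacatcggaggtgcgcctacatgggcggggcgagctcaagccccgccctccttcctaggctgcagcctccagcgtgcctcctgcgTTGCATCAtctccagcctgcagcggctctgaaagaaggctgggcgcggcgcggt
Slc6a9: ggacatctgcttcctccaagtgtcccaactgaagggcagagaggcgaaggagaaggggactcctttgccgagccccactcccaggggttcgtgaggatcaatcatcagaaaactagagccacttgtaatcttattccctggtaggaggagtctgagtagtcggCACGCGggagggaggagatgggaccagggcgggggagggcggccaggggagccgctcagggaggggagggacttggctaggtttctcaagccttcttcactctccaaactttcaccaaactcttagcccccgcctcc
Slc20a1: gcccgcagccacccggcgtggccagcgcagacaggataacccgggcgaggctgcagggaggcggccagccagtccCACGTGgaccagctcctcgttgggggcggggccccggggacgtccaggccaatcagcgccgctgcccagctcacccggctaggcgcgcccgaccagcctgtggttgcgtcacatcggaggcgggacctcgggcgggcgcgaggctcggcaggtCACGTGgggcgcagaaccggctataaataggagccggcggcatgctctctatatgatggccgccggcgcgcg
In Slc1a4 the match begins at base 247 of the window, across the start site, in Slc6a9 at base 164, and in Slc20a1 the matches begin at bases 76 and 229. RefSeq windows were matched for 139 of the 184 genes, 190 windows in all, since a gene can have several starts. CACGTG, which reads the same on both strands, was in 21.6% of 51 windows of lower SLC genes, 9.68% of 62 windows of higher ones and 14.3% of 77 windows of genes not called. It was in 10.1% of 11648 windows of all genes tested and in 7.15% of all 32851 windows. CACGCG or its reverse complement was in 19.6%, 9.68% and 19.5% of the windows of lower, higher and not called SLC genes, against 16.8% for the genes tested and 9.27% for all windows. Of the member windows 7 held both motifs. TGATGNAA, the core of the ATF4 response element, was in 3.16% of the 190 windows, 2.26% of windows of genes tested and 3.97% of all windows. By call it was in 1.96% of windows of lower SLC genes, 4.84% of higher ones and 2.6% of those not called. No window of Slc6a9 held it. TGACNNNGC is the core of the element bound by NRF2, the factor of the oxidant response. It was in 20.5% of the 190 windows, 14.3% of windows of genes tested and 12.4% of all windows. By call it was in 21.6% of windows of lower SLC genes, 21% of higher ones and 19.5% of those not called. These are matches of letters, with no test, and several windows belong to the same gene.

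Amino acid and peptide carriers split into genes that fell and genes that rose, with the steepest single falls of the larger classes on the log2 scale. The median size of the change regardless of sign was 0.27, less than the 0.46 of carriers of organic ions and monocarboxylates. Of 28 genes 13 were higher (46.4%), 8 lower (28.6%) and 7 not called, beside 29.9% higher and 23.4% lower among all genes tested. Of these, Slc43a1, Slc6a15 and Slc7a4 passed the filter through 1 genotype only, which favoured a difference in them. With at least 1 FPKM in all 6 libraries, 12 of 24 genes were higher and 5 lower. The median log2 fold change was 0.11, while the summed level of the class went the other way. It was 367.5, 367.7 and 362.3 FPKM in HEY1-3KR KI, against 386.2, 389.8 and 382 FPKM in HEY1-WT KI. Slc6a9, the glycine transporter GlyT1 on chromosome 4 at 117835258 to 117869305, read 8.501, 8.79 and 9.09 FPKM in HEY1-3KR KI, against 19.1, 19.4 and 21.2 FPKM in HEY1-WT KI. The log2 fold change was -1.09 ± 0.0496 (SE; limma, adjusted p = 4.14e-07), and each HEY1-3KR KI library was below each HEY1-WT KI library. Slc7a3, the cationic amino acid transporter CAT3 on chromosome X at 101079146 to 101090452, carries arginine and lysine and read 2.87, 3.09 and 2.92 FPKM in HEY1-3KR KI, against 6.499, 6.101 and 6.15 FPKM in HEY1-WT KI. Its change was -0.87 ± 0.0494 (SE; limma, adjusted p = 1.45e-06), again without overlap. Slc1a4, the exchanger ASCT1 for alanine, serine and cysteine on chromosome 11 at 20302180 to 20332713, read 20.8, 21.97 and 21.5 FPKM in HEY1-3KR KI, against 32.9, 31.3 and 32.2 FPKM in HEY1-WT KI. It was 1.5-fold lower in HEY1-3KR KI (log2 fold change -0.56 ± 0.0375, SE; limma, adjusted p = 3.79e-06). Slc3a2, the heavy chain CD98 that brings several light chains to the surface, on chromosome 19 at 8706882 to 8723369, was the most abundant of the class and read 95.1, 92.3 and 91.9 FPKM in HEY1-3KR KI, against 124, 119 and 114 FPKM in HEY1-WT KI. Its groups did not overlap, at 1.28-fold lower in HEY1-3KR KI (log2 fold change -0.35 ± 0.0376, SE; limma, adjusted p = 6.92e-05). Slc6a15, a carrier of branched-chain amino acids known from neurons, was low, at 0.247, 0.1703 and 0.241 FPKM in HEY1-3KR KI, against 1.45, 1.66 and 1.66 FPKM in HEY1-WT KI. Slc1a6, a glutamate transporter known from Purkinje cells of the cerebellum, was 2.31-fold lower (0.999 ± 0.126 FPKM in HEY1-3KR KI and 2.31 ± 0.336 FPKM in HEY1-WT KI; SD, n = 3). Slc38a7, a glutamine carrier of lysosomes, was 1.38-fold lower, and Slc7a4, a relative of the cationic carriers near the filter, 1.46-fold lower. The call of Slc7a4 was lost without HEY1-3KR KI replicate 3 or HEY1-WT KI replicate 1 (limma adjusted p = 0.0556 to 0.06).

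The light chains that pair with Slc3a2 went both ways. Slc7a6, Slc7a7 and Slc7a8 belong to the 184 genes and were called higher, while Slc7a5 and Slc7a11 were set aside by name and are given here after their values were seen. Slc7a11, the cystine-glutamate exchanger xCT, was 2.86-fold lower, at 7.94 ± 0.1297 FPKM in HEY1-3KR KI and 22.7 ± 1.3 FPKM in HEY1-WT KI, and Slc7a5, the exchanger LAT1, 1.26-fold higher, at 91.03 ± 2.38 FPKM in HEY1-3KR KI and 72.3 ± 2.32 FPKM in HEY1-WT KI (SD, n = 3 each). Slc7a8, the neutral amino acid exchanger LAT2 on chromosome 14 at 54722215 to 54781886, read 15.9, 15.8 and 15.7 FPKM in HEY1-3KR KI, against 7.501, 7.82 and 7.69 FPKM in HEY1-WT KI. Its log2 fold change was 0.96 ± 0.0381 (SE; limma, adjusted p = 1.98e-07), and its libraries differed little within a genotype. Slc7a7, the light chain y+LAT1 that exports cationic amino acids, was 1.44-fold higher, at 9.01 ± 0.646 FPKM in HEY1-3KR KI and 6.26 ± 0.484 FPKM in HEY1-WT KI (SD, n = 3 each). Slc7a6, its close relative y+LAT2, was 1.12-fold higher, at 12.6 ± 0.566 FPKM in HEY1-3KR KI and 11.3 ± 0.592 FPKM in HEY1-WT KI, and its call was lost without HEY1-3KR KI replicates 1 or 2 or HEY1-WT KI replicates 1 or 3 (limma adjusted p = 0.0784 to 0.119), and with median-of-ratios scaling, with no filter on low values or with quantile normalization (limma adjusted p = 0.0558 to 0.118).

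Other amino acid carriers that rose sit at the plasma membrane and in lysosomes. Slc38a4, a sodium-coupled neutral amino acid transporter (SNAT4) known from liver, read 3.97, 3.49 and 3.65 FPKM in HEY1-3KR KI, against 1.51, 1.86 and 1.996 FPKM in HEY1-WT KI, with a log2 fold change of 0.76 ± 0.0769 (SE; limma, adjusted p = 5.02e-05). Slc15a3, a proton-coupled transporter of histidine and peptides in lysosomes of immune cells, on chromosome 19 at 10842544 to 10857915, read 10.6, 10.54 and 10.7 FPKM in HEY1-3KR KI, against 6.89, 6.79 and 7.19 FPKM in HEY1-WT KI. The groups did not overlap, and the libraries of HEY1-3KR KI lay within a narrow band (log2 fold change 0.55 ± 0.0412, SE; limma, adjusted p = 7.9e-06). Slc16a10, which carries aromatic amino acids, was 1.56-fold higher and Slc43a1, a carrier of branched-chain amino acids (LAT3), 1.69-fold higher. The remaining rises, Slc36a4, Slc38a10, Slc43a2, Slc66a2, Slc38a2 and Slc1a5, lay between 1.11-fold and 1.26-fold. Not called were Slc7a1, the widespread arginine carrier CAT1 (12.4 ± 0.315 FPKM in HEY1-3KR KI and 11.6 ± 1.03 FPKM in HEY1-WT KI), Slc7a2, its relative CAT2 (4.97 ± 0.1503 FPKM in HEY1-3KR KI and 4.44 ± 0.513 FPKM in HEY1-WT KI), and Slc36a1, Slc15a4, Slc66a1, Slc38a1 and Slc38a6.

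The carriers known to respond to ATF4 did not move as a block. Of 7 listed genes Slc6a9, Slc7a3, Slc1a4 and Slc3a2 were lower, Slc1a5 and Slc38a2 higher and Slc7a1 not called, with a median log2 fold change of -0.35. Among all genes tested 29.9% were higher and 23.4% lower. Slc1a5, the glutamine carrier ASCT2, read 35.1, 32.9 and 35.4 FPKM in HEY1-3KR KI, against 31.3, 30.5 and 31.1 FPKM in HEY1-WT KI, and Slc38a2, the SNAT2 carrier induced by amino acid shortage, read 22.3, 22.1 and 21.9 FPKM in HEY1-3KR KI, against 18.8, 19.2 and 19 FPKM in HEY1-WT KI. Both rose by little, with log2 fold changes of 0.15 and 0.21 (limma, adjusted p = 0.0117 and 0.000893). The Atf4 transcript itself read 159.7, 149 and 156 FPKM in HEY1-3KR KI, against 165, 155 and 159 FPKM in HEY1-WT KI and was not called (limma adjusted p = 0.392), which says nothing of its protein. Each of the 4 lower genes was called lower in every setting tried.

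**Figure D3:**
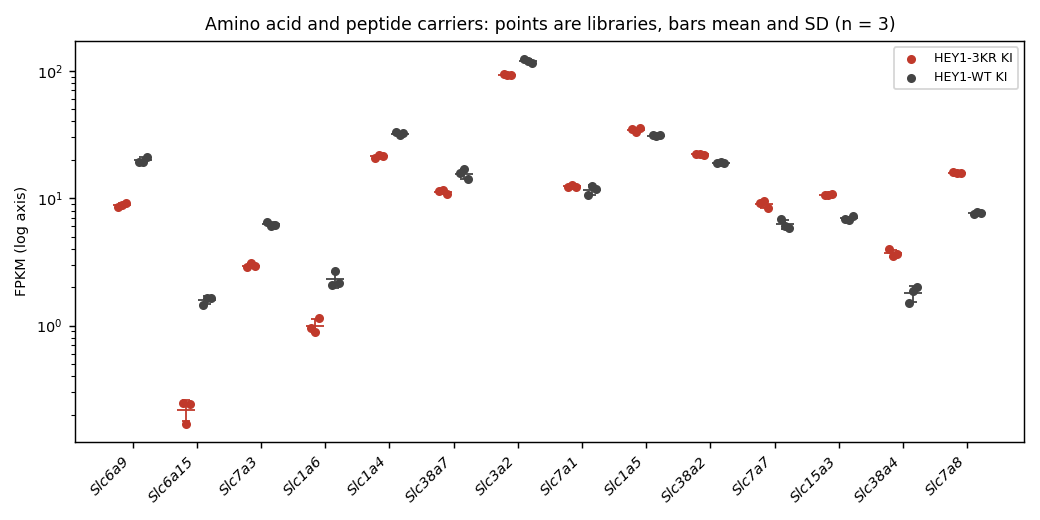
FPKM (y axis, log axis) of 14 amino acid and peptide carriers (x axis) in the 3 HEY1-3KR KI libraries (red, left of each pair) and the 3 HEY1-WT KI libraries (grey, right). Points are libraries and bars the mean and SD. The first 7 genes are lower in HEY1-3KR KI without overlap, Slc7a1 overlaps, and Slc7a8 at the right is about 2-fold higher. Slc6a15 passed the filter through HEY1-WT KI alone, which favoured a fall in it.

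Among carriers of metals and heme 1 abundant gene fell sharply and many others stayed close. Of 22 genes 7 were higher (31.8%), 6 lower (27.3%) and 9 not called, beside 29.9% higher and 23.4% lower of all genes tested. The median log2 fold change was -0.03. Slc48a1 (HRG1), which moves heme out of phagolysosomes and is known from macrophages that recycle red cells, lies on chromosome 15 at 97784365 to 97792692. It read 109, 102 and 107 FPKM in HEY1-3KR KI, against 189.8, 190.4 and 194 FPKM in HEY1-WT KI, so that every HEY1-3KR KI library was far below every HEY1-WT KI library. The fall was 1.805-fold (log2 fold change -0.85 ± 0.03395, SE; limma, adjusted p = 2.1e-07). Macrophage markers summed higher in the same HEY1-3KR KI libraries, as given above. The summed level of the class was 435, 411 and 418 FPKM in HEY1-3KR KI, against 518, 515 and 519 FPKM in HEY1-WT KI. Without Slc48a1 it was 326, 309 and 311 FPKM in HEY1-3KR KI, against 328, 324 and 324 FPKM in HEY1-WT KI, and the genotypes overlapped.

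Zinc importers of the ZIP family (Slc39) went both ways. Slc39a6 (ZIP6) read 19.8, 20.5 and 20.6 FPKM in HEY1-3KR KI, against 32.7, 33.04 and 31.1 FPKM in HEY1-WT KI and was 1.59-fold lower in HEY1-3KR KI (limma, adjusted p = 1.91e-06). Slc39a11 (ZIP11) was 1.46-fold lower, at 9.87 ± 0.607 FPKM in HEY1-3KR KI and 14.4 ± 0.139 FPKM in HEY1-WT KI (SD, n = 3), and Slc39a13 (ZIP13) 1.201-fold lower. Slc39a4 (ZIP4), the importer of dietary zinc in the gut, was low and read 2.12, 1.84 and 1.91 FPKM in HEY1-3KR KI, against 1.25, 1.11 and 1.01 FPKM in HEY1-WT KI, 1.75-fold higher in HEY1-3KR KI. Slc39a8 (ZIP8), which also carries manganese, was 1.35-fold higher, and Slc39a9 1.18-fold. The most abundant importer, Slc39a1 (ZIP1), was 1.07-fold higher, at 83.5 ± 1.69 FPKM in HEY1-3KR KI and 78.1 ± 0.746 FPKM in HEY1-WT KI, and its call was lost without HEY1-3KR KI replicates 1 or 2 or HEY1-WT KI replicates 1, 2 or 3 (limma adjusted p = 0.0573 to 0.11), and without limma's variance trend or with median-of-ratios scaling (limma adjusted p = 0.0724 to 0.0981). Slc39a7 (ZIP7), which releases zinc from the endoplasmic reticulum, was not called and was uneven in HEY1-3KR KI, at 83.7, 67.03 and 73.3 FPKM. Slc39a2, Slc39a3 and Slc39a10 were not called either. Of the zinc exporters of family 30, Slc30a5 and Slc30a7, which load the secretory pathway, were 1.195-fold and 1.16-fold higher, and Slc30a4, Slc30a6 and Slc30a9 were not called. The call of Slc30a7 was lost without HEY1-3KR KI replicates 1 or 2 or HEY1-WT KI replicates 1, 2 or 3 (limma adjusted p = 0.0637 to 0.126), and with median-of-ratios scaling, with no filter on low values or with quantile normalization (limma adjusted p = 0.0677 to 0.164).

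Slc31a1, the copper importer CTR1, read 20.01, 20.4 and 17.6 FPKM in HEY1-3KR KI, against 14.7, 15.1 and 15.1 FPKM in HEY1-WT KI, a log2 fold change of 0.35 ± 0.05599 (SE; limma, adjusted p = 0.000853). Its relative Slc31a2 was not called, at 12.3 ± 0.565 FPKM in HEY1-3KR KI and 13.2 ± 0.635 FPKM in HEY1-WT KI. Of the magnesium carriers Slc41a2 was 1.27-fold lower and Slc41a3 1.195-fold lower in HEY1-3KR KI, and Slc41a1 was not called. The call of Slc41a3 was lost without HEY1-3KR KI replicates 1 or 2 or HEY1-WT KI replicates 1 or 3 (limma adjusted p = 0.0662 to 0.0951), and with no filter on low values (limma adjusted p = 0.0638).

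Mitochondrial carriers (family 25) leaned lower, by small amounts. These proteins exchange nucleotides, phosphate, carboxylates, amino acids and cofactors across the inner membrane. Of 36 genes 6 were higher (16.7%), 13 lower (36.1%) and 17 not called, against 29.9% higher and 23.4% lower of all genes tested. The median log2 fold change was -0.09, and 2 of the 13 fell by 1.5-fold or more on the log2 scale. With the other scalings 5 were higher and 14 or 15 lower. Slc25a37 (mitoferrin 1), which imports iron into mitochondria, lies on chromosome 14 at 69241848 to 69285544 and read 11.7, 13.2 and 12.8 FPKM in HEY1-3KR KI, against 19.4, 21.7 and 21.5 FPKM in HEY1-WT KI. It was 1.66-fold lower in HEY1-3KR KI (log2 fold change -0.68 ± 0.0579, SE; limma, adjusted p = 1.65e-05). Its paralogue Slc25a28 (mitoferrin 2) was not called, at 8.699 ± 0.178 FPKM in HEY1-3KR KI and 8.49 ± 0.2902 FPKM in HEY1-WT KI (SD, n = 3). Slc25a43, a carrier whose cargo is less clear, was 1.73-fold lower, at 2.17 ± 0.152 FPKM in HEY1-3KR KI and 3.77 ± 0.161 FPKM in HEY1-WT KI. Slc25a39, which imports glutathione, was 1.25-fold lower, and Slc25a33, a carrier of pyrimidine nucleotides, 1.36-fold lower.

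The ADP/ATP carriers, both among the 3 highest of the 184 genes in level, went opposite ways. Slc25a5 (ANT2), the form of growing cells, on chromosome X at 36795597 to 36798808, read 289, 273 and 298 FPKM in HEY1-3KR KI, against 268, 247 and 253 FPKM in HEY1-WT KI. It was 1.12-fold higher (limma, adjusted p = 0.0132), with no overlap. Slc25a4 (ANT1), the form of heart and muscle, read 126, 126 and 128 FPKM in HEY1-3KR KI, against 142, 136 and 142 FPKM in HEY1-WT KI and was 1.11-fold lower (limma, adjusted p = 0.0044). Both genes have close copies, and how reads shared between copies were counted is not given in the sources used here, so these small differences are uncertain. Slc25a3, the phosphate carrier that feeds ATP synthase, was 1.17-fold lower, at 74.1 ± 2.77 FPKM in HEY1-3KR KI and 86.3 ± 2.42 FPKM in HEY1-WT KI, and Slc25a24, the exchanger of ATP-magnesium for phosphate, 1.27-fold lower. Of 12 tested nucleotide and phosphate carriers 3 were higher (25%) and 5 lower (41.7%), beside 29.9% and 23.4% of all genes tested (median log2 fold change of the 12 carriers -0.11). Among the 3 were Slc25a32, which carries folate, 1.25-fold, and Slc25a25, a second ATP-magnesium exchanger, 1.201-fold. Slc25a51, the NAD carrier, was 1.09-fold higher, and its call was lost without HEY1-3KR KI replicates 1 or 2 or HEY1-WT KI replicates 2 or 3 (limma adjusted p = 0.0705 to 0.118), and without limma's variance trend, with median-of-ratios scaling or with quantile normalization (limma adjusted p = 0.0547 to 0.106).

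Of 12 tested carboxylate and amino acid carriers 2 were higher (16.7%), 3 lower (25%) and 7 not called (median log2 fold change -0.03). Over all genes tested 29.9% were higher and 23.4% lower. Slc25a10, the dicarboxylate carrier, read 14.4, 14.2 and 14.1 FPKM in HEY1-3KR KI, against 11.7, 11.1 and 10.8 FPKM in HEY1-WT KI, 1.27-fold higher without overlap. Slc25a45 was 1.51-fold higher, at 5.61 ± 0.171 FPKM in HEY1-3KR KI and 3.72 ± 0.203 FPKM in HEY1-WT KI (log2 fold change 0.49 ± 0.0518, SE; limma, adjusted p = 6.67e-05), the steepest rise of the family. Slc25a1, the citrate carrier that supplies carbon for lipid synthesis, read 34.8, 32.7 and 38.6 FPKM in HEY1-3KR KI, against 50.1, 42.3 and 38.6 FPKM in HEY1-WT KI. The lowest HEY1-WT KI library all but met the highest HEY1-3KR KI library, and the call of a lower level was lost without HEY1-3KR KI replicates 1 or 2 or HEY1-WT KI replicate 1 (limma adjusted p = 0.0606 to 0.0928), and with no filter on low values (limma adjusted p = 0.0614). Slc25a13 (citrin), the aspartate-glutamate carrier of liver, was 1.3-fold lower, while its paralogue Slc25a12 (aralar) was not called, at 6.12 ± 0.224 FPKM in HEY1-3KR KI and 6.01 ± 0.242 FPKM in HEY1-WT KI. Slc25a44, which imports branched-chain amino acids, was 1.097-fold lower, and its call was lost without HEY1-3KR KI replicates 1, 2 or 3 or HEY1-WT KI replicates 2 or 3 (limma adjusted p = 0.0543 to 0.149), and without limma's variance trend or with no filter on low values (limma adjusted p = 0.0521 to 0.0562).

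The creatine carrier fell by nearly as much as the glycine carrier. Slc6a8, which takes up creatine with sodium and chloride, lies on chromosome X at 73673133 to 73682502 and read 21.4, 20.4 and 20.6 FPKM in HEY1-3KR KI, against 40.9, 41.3 and 38.1 FPKM in HEY1-WT KI. The log2 fold change was -0.91 ± 0.0421 (SE; limma, adjusted p = 4.5e-07), 1.93-fold lower in HEY1-3KR KI. Slc6a6, the taurine transporter and the other abundant gene of this family, read 35.8, 38.4 and 34.9 FPKM in HEY1-3KR KI, against 36.99, 40.9 and 39.1 FPKM in HEY1-WT KI and was not called (limma adjusted p = 0.13). Of the 4 members of family 6, Slc6a8, Slc6a9 and Slc6a15 were lower and none higher. Slc6a15 passed the filter through HEY1-WT KI alone, which favoured a fall in it. Among all genes tested 23.4% were lower. Of the carriers that NFAT5 induces under high salt, Slc6a6 and Slc38a2 passed the filter, and Slc5a3, the myo-inositol carrier, and Slc6a12, the betaine carrier, did not.

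Carriers of organic ions and monocarboxylates had the fewest uncalled genes of the larger classes. Of 13 genes 5 were higher (38.5%), 7 lower (53.8%) and Slc10a3 alone not called, with a median log2 fold change of -0.16. Among all genes tested 29.9% were higher and 23.4% lower. All 5 members of family 22, the organic cation and anion carriers, were lower in HEY1-3KR KI, from 1.14-fold to 1.84-fold. Slc22a4, which takes up ergothioneine, a dietary antioxidant, read 1.07, 1.503 and 1.42 FPKM in HEY1-3KR KI, against 2.42, 2.096 and 2.29 FPKM in HEY1-WT KI. Slc22a5, its close relative, carries carnitine and read 4.63, 4.33 and 4.196 FPKM in HEY1-3KR KI, against 5.298, 4.88 and 4.81 FPKM in HEY1-WT KI. Slc22a17, described as a receptor of lipocalin 2, was 1.39-fold lower, Slc22a23 1.39-fold lower, and Slc22a18 was 1.84-fold lower, at 1.29 ± 0.2695 FPKM in HEY1-3KR KI and 2.37 ± 0.339 FPKM in HEY1-WT KI (SD, n = 3). The 5 were lower under the 2 other scalings as well, and the call of Slc22a5 was lost without HEY1-3KR KI replicates 2 or 3 or HEY1-WT KI replicates 1, 2 or 3 (limma adjusted p = 0.0528 to 0.126), and with no filter on low values (limma adjusted p = 0.0641).

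Monocarboxylate carriers (family 16) went both ways. Slc16a6 (MCT7) read 9.36, 9.796 and 9.79 FPKM in HEY1-3KR KI, against 4.78, 5.27 and 5.68 FPKM in HEY1-WT KI, 1.84-fold higher and without overlap. Slc16a9 (MCT9) was 1.51-fold higher, at 4.21 ± 0.109 FPKM in HEY1-3KR KI and 2.79 ± 0.135 FPKM in HEY1-WT KI. Slc16a11 and Slc16a13, which lie 375 bases apart on chromosome 11, both fell. Slc16a11 read 1.32, 0.885 and 1.09 FPKM in HEY1-3KR KI, against 2.48, 2.67 and 2.77 FPKM in HEY1-WT KI, and Slc16a13 read 2.504, 2.48 and 2.83 FPKM in HEY1-3KR KI, against 4.23, 4.37 and 4.69 FPKM in HEY1-WT KI. Whether the counting used strand is not given, so reads of neighbouring genes may not have been kept apart. Slc10a6, a carrier of steroid sulfates, and Slc10a7 were 1.31-fold and 1.23-fold higher.

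Slc28a2, Slc29a1, Slc29a2 and Slc43a3, carriers of nucleosides and bases, rose, and the thiamine carrier Slc19a2 fell. Of 13 nucleoside and vitamin carriers 6 were higher (46.2%), 1 lower (7.69%) and 6 not called (median log2 fold change 0.18). In all 53.8% of the class were called, beside 53.2% of all genes tested, of which 29.9% were higher and 23.4% lower. Slc29a1 (ENT1), the main route of adenosine into endothelial cells, lies on chromosome 17 at 45585200 to 45599618 and read 21.8, 20.3 and 20.9 FPKM in HEY1-3KR KI, against 17.4, 15.2 and 15.8 FPKM in HEY1-WT KI, 1.303-fold higher (limma, adjusted p = 0.000506). Slc29a2 (ENT2) was 1.599-fold higher, at 2.83 ± 0.316 FPKM in HEY1-3KR KI and 1.77 ± 0.204 FPKM in HEY1-WT KI (SD, n = 3 each). Slc28a2 (CNT2), which concentrates purine nucleosides with sodium, read 1.58, 2.19 and 1.84 FPKM in HEY1-3KR KI, against 0.619, 0.509 and 0.567 FPKM in HEY1-WT KI. It passed the filter through HEY1-3KR KI alone, which favoured a rise in it. With at least 1 FPKM in all 6 libraries, 5 of 12 genes of the class were higher and 1 lower (median log2 fold change 0.1345). Slc43a3, a carrier of purine bases and the most abundant of the class, lies on chromosome 2 at 84936545 to 84958509 and read 52.8, 52.3 and 49.4 FPKM in HEY1-3KR KI, against 36.98, 38.4 and 37.3 FPKM in HEY1-WT KI. It was 1.37-fold higher in HEY1-3KR KI (log2 fold change 0.44 ± 0.0379, SE; limma, adjusted p = 1.74e-05). Slc29a3 (ENT3), the form of lysosomes, was not called, at 6.94 ± 0.178 FPKM in HEY1-3KR KI and 6.68 ± 0.333 FPKM in HEY1-WT KI.

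Slc19a2, the high-affinity thiamine carrier on chromosome 1 at 164249046 to 164265385, read 8.99, 8.75 and 9.61 FPKM in HEY1-3KR KI, against 19.9, 17.3 and 16.3 FPKM in HEY1-WT KI. It was 1.96-fold lower in HEY1-3KR KI (log2 fold change -0.89 ± 0.0707, SE; limma, adjusted p = 1.11e-05). Slc19a1, the reduced folate carrier, was 1.15-fold higher, and its call was lost without HEY1-3KR KI replicate 2 or HEY1-WT KI replicates 1 or 3 (limma adjusted p = 0.0579 to 0.0653), and with quantile normalization (limma adjusted p = 0.0575). Slc46a3, a lysosomal member of the folate carrier family, was 1.65-fold higher, at 4.08 ± 0.187 FPKM in HEY1-3KR KI and 2.46 ± 0.364 FPKM in HEY1-WT KI. The carriers of ascorbate (Slc23a2), folate and heme (Slc46a1), biotin and pantothenate (Slc5a6) and riboflavin (Slc52a2 and Slc52a3) were not called.

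Ion carriers of the plasma membrane and endosomes went both ways. Of 20 genes that move bicarbonate, protons, sodium, chloride or calcium, 7 were higher (35%), 5 lower (25%) and 8 not called. Shares over all genes tested were 29.9% higher and 23.4% lower. The median log2 fold change of 0.04 was -0.01 after quantile normalization. Slc4a4 (NBCe1), a sodium bicarbonate cotransporter, read 1.99, 2.35 and 2.11 FPKM in HEY1-3KR KI, against 3.13, 3.495 and 3.47 FPKM in HEY1-WT KI and was 1.57-fold lower. The anion exchangers Slc4a3 and Slc4a2 were 1.41-fold and 1.12-fold lower, Slc12a8 1.53-fold and Slc9a4 1.28-fold lower. The call of Slc4a2 was lost without HEY1-3KR KI replicates 2 or 3 or HEY1-WT KI replicates 2 or 3 (limma adjusted p = 0.0537 to 0.0725). That of Slc9a4 was lost without HEY1-3KR KI replicates 1 or 2 or HEY1-WT KI replicates 1, 2 or 3 (limma adjusted p = 0.0615 to 0.152), and with no filter on low values or with a pseudocount of 0.1 FPKM (limma adjusted p = 0.0515 to 0.0829). Without HEY1-3KR KI replicate 2 or HEY1-WT KI replicate 2 or 3 the lower count was 3. Slc9a9 (NHE9), a sodium-proton exchanger of endosomes, read 2.76, 2.95 and 3.44 FPKM in HEY1-3KR KI, against 1.53, 1.72 and 1.72 FPKM in HEY1-WT KI, 1.84-fold higher without overlap (limma, adjusted p = 0.000142). The potassium-chloride cotransporter Slc12a7 (KCC4) was 1.37-fold higher, and Slc12a2 (NKCC1), which brings chloride in, 1.22-fold higher. Slc12a4 (KCC1), the most abundant of the class, was not called, at 32.4 ± 1.42 FPKM in HEY1-3KR KI and 35.1 ± 1.23 FPKM in HEY1-WT KI, but was called lower under both other scalings and without HEY1-3KR KI replicate 1 (limma adjusted p = 0.027, 0.0387 and 0.0354). Slc8a1 (NCX1), the sodium-calcium exchanger, was 1.35-fold higher, and all 3 members of the anion exchanger family 26 were higher, among them Slc26a11 at 1.34-fold, though the call of Slc26a6 was lost without HEY1-3KR KI replicates 2 or 3 or HEY1-WT KI replicates 1 or 2 (limma adjusted p = 0.0733 to 0.154), and with median-of-ratios scaling, with no filter on low values, with a pseudocount of 0.1 FPKM or with quantile normalization (limma adjusted p = 0.0513 to 0.125).

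Of 5 carriers of phosphate, sulfate and vesicular anions 2 were higher, 2 lower and 1 not called (median log2 fold change -0.09). Over all genes tested 29.9% were higher and 23.4% lower. The 2 lower carriers take up phosphate. Slc20a1 (PiT1), whose promoter is printed above, lies on chromosome 2 at 129198773 to 129211615 and read 18.1, 18.7 and 18.2 FPKM in HEY1-3KR KI, against 24.04, 24.1 and 23.4 FPKM in HEY1-WT KI. Slc20a2 (PiT2) read 19.3, 19 and 18.4 FPKM in HEY1-3KR KI, against 22.8, 25.6 and 23.5 FPKM in HEY1-WT KI. These sodium-phosphate cotransporters were 1.298-fold and 1.27-fold lower in HEY1-3KR KI, without overlap (limma, adjusted p = 4.22e-05 and 0.00048). Slc26a2, a sulfate carrier needed for sulfated proteoglycans, was 1.305-fold higher, and Slc17a9, which loads ATP into vesicles, 1.36-fold higher. Slc17a5 (sialin), which exports sialic acid from lysosomes, was not called.

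Of 10 sugar carriers 4 were higher, none lower and 6 not called (median log2 fold change 0.08), a share of 40% higher beside 29.9% among all genes tested. With median-of-ratios scaling 3 were higher and with quantile normalization 2, and with each 1 was lower, as it was without HEY1-WT KI replicate 2. This was Slc50a1, an exporter of the SWEET family, which averaged 21.2 ± 0.239 FPKM in HEY1-3KR KI and 23.2 ± 1.38 FPKM in HEY1-WT KI. Slc45a4 read 7.85, 7.23 and 7.49 FPKM in HEY1-3KR KI, against 4.44, 5.09 and 4.67 FPKM in HEY1-WT KI, 1.59-fold higher. Slc2a3 (GLUT3), a high-affinity glucose carrier, read 2.58, 2.53 and 2.301 FPKM in HEY1-3KR KI, against 1.74, 1.703 and 1.83 FPKM in HEY1-WT KI, 1.41-fold higher (limma, adjusted p = 0.00115). Slc2a9, a urate carrier, and Slc37a2, a sugar phosphate exchanger known from macrophages, were 1.24-fold and 1.12-fold higher. The call of Slc37a2 was lost without HEY1-3KR KI replicates 1 or 3 or HEY1-WT KI replicates 1, 2 or 3 (limma adjusted p = 0.0668 to 0.145), and with median-of-ratios scaling, with no filter on low values or with quantile normalization (limma adjusted p = 0.0581 to 0.16). That of Slc2a9 was lost without HEY1-3KR KI replicates 2 or 3 or HEY1-WT KI replicates 1 or 3 (limma adjusted p = 0.0576 to 0.0961), and with quantile normalization (limma adjusted p = 0.113). Without HEY1-WT KI replicate 1 or 3, 2 sugar carriers were called higher.

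Fatty acid and choline carriers were few and went both ways. Of 7 genes 2 were higher (28.6%), 3 lower (42.9%) and 2 not called, beside 29.9% higher and 23.4% lower of all genes tested. The median log2 fold change of 0.01 was -0.01 and -0.03 under the other scalings and -0.02 without HEY1-WT KI replicate 2. Slc27a1 (FATP1), a fatty acid transport protein with acyl-CoA synthetase activity, read 5.57, 5.32 and 5.37 FPKM in HEY1-3KR KI, against 8.76, 9.16 and 8.55 FPKM in HEY1-WT KI, 1.63-fold lower (limma, adjusted p = 7.06e-06). Slc27a3 was 1.68-fold lower and Slc27a6 1.43-fold higher, while Slc27a4 (FATP4), the most abundant of the family, was not called at 9.61 ± 0.06999 FPKM in HEY1-3KR KI and 9.54 ± 0.407 FPKM in HEY1-WT KI. Of the choline transporter-like genes Slc44a2 was 1.34-fold lower, at 15.1 ± 0.286 FPKM in HEY1-3KR KI and 20.2 ± 0.0767 FPKM in HEY1-WT KI, and Slc44a1 1.18-fold higher, at 7.95 ± 0.0527 FPKM in HEY1-3KR KI and 6.74 ± 0.3404 FPKM in HEY1-WT KI. Slc33a1, which brings acetyl-CoA into the endoplasmic reticulum, was not called.

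Nucleotide sugar carriers (family 35) load the Golgi and the endoplasmic reticulum with the donors for glycosylation, and several members have no settled cargo. Of 21 genes 6 were higher (28.6%), 5 lower (23.8%) and 10 not called (median log2 fold change -0.04), beside 29.9% higher and 23.4% lower of all genes tested. After quantile normalization 3 were higher and 7 lower. Without HEY1-3KR KI replicate 1 the counts were 3 and 3, and without HEY1-WT KI replicate 2 they were 4 and 3, with a median of 0.01. Slc35c1, the GDP-fucose carrier that serves fucosylation of Notch receptors, was not called, at 13.2 ± 0.834 FPKM in HEY1-3KR KI and 13.8 ± 0.1802 FPKM in HEY1-WT KI (limma adjusted p = 0.325). Slc35a3, the carrier of UDP-N-acetylglucosamine, and Slc35b1, which brings ATP into the endoplasmic reticulum, were 1.19-fold and 1.21-fold higher. The call of Slc35a3 was lost after quantile normalization (limma adjusted p = 0.0614). The steepest changes were in members without a settled cargo, Slc35e4 at 13.2, 13.4 and 14.4 FPKM in HEY1-3KR KI, against 22.4, 22.4 and 22.2 FPKM in HEY1-WT KI, and Slc35e1 at 18.6, 20.1 and 18.3 FPKM in HEY1-3KR KI, against 13.7, 13.8 and 13.9 FPKM in HEY1-WT KI. Slc35f5 and Slc35e3 were 1.302-fold and 1.26-fold lower. Slc35a4, the most abundant of the family, was 1.12-fold higher, and its call was lost without HEY1-3KR KI replicate 1 (limma adjusted p = 0.0501). Slc35a2, the carrier of UDP-galactose, and Slc35g2 were 1.12-fold and 1.17-fold higher, and Slc35a1, the carrier of CMP-sialic acid, and Slc35d1 1.13-fold and 1.25-fold lower. Each of these 4 calls was lost without 2 to 5 of the single libraries. For Slc35a2 this was without HEY1-3KR KI replicates 1 or 3 or HEY1-WT KI replicates 2 or 3 (limma adjusted p = 0.0623 to 0.0723), and with quantile normalization (limma adjusted p = 0.114). For Slc35g2 it was without HEY1-3KR KI replicates 1 or 3 or HEY1-WT KI replicates 1, 2 or 3 (limma adjusted p = 0.0537 to 0.116), and with median-of-ratios scaling, with no filter on low values or with quantile normalization (limma adjusted p = 0.0545 to 0.161). Slc35a1 lost its call without HEY1-3KR KI replicates 1 or 2 or HEY1-WT KI replicates 1 or 2 (limma adjusted p = 0.072 to 0.113), and with no filter on low values (limma adjusted p = 0.0591), and Slc35d1 without HEY1-3KR KI replicate 1 or HEY1-WT KI replicate 2 (limma adjusted p = 0.0569 to 0.0572).

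**Figure D4:**
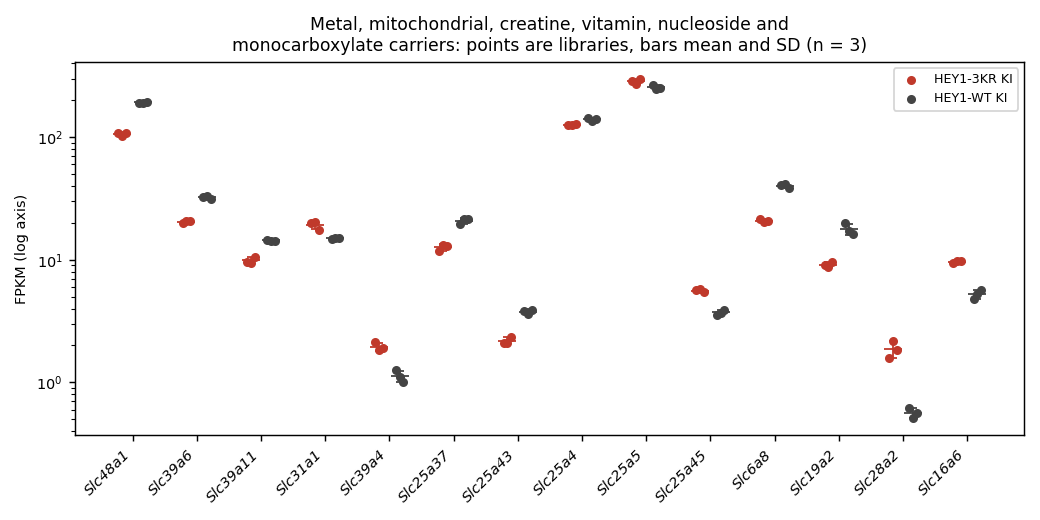
FPKM (y axis, log axis) of 14 carriers of metals, heme, mitochondrial cargo, creatine, vitamins, nucleosides and monocarboxylates (x axis) in the 3 HEY1-3KR KI libraries (red, left of each pair) and the 3 HEY1-WT KI libraries (grey, right). Points are libraries and bars the mean and SD. Slc48a1 is lower and Slc28a2 higher in every HEY1-3KR KI library, while Slc25a4 and Slc25a5 differ by little. Slc28a2 passed the filter through HEY1-3KR KI alone, which favoured a rise in it.

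The urea channel gene Slc14a1 (UT-B), known from red cells and the endothelium of kidney vessels, had the largest change on either side of 0. It read 1.78, 2.099 and 1.805 FPKM in HEY1-3KR KI, against 0.225, 0.249 and 0.209 FPKM in HEY1-WT KI. Its log2 fold change was 1.24 ± 0.0654 (SE; limma, adjusted p = 9.78e-07), in a gene that passed the filter through HEY1-3KR KI alone. Slc18b1 and Slc49a4, a lysosomal membrane protein, were not called. In this selection 4 genes bear a carrier's name but encode other proteins. Slc9a3r1 (NHERF1), a scaffold that holds transporters at the membrane, read 44.2, 40.4 and 40.8 FPKM in HEY1-3KR KI, against 28.6, 29.8 and 28.6 FPKM in HEY1-WT KI, 1.44-fold higher (limma, adjusted p = 1.62e-05), and Slc9a3r2, Slc7a6os and Slc4a1ap were not called.

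Calls in both directions were common within families. The 180 carriers belong to 43 families, and 21 of these have 3 or more members. Of the 21, 10 held both a higher and a lower gene. Family 22 had 5 lower of 5, and families 26 and 43 had 3 higher of 3. Among all genes tested 23.4% were lower and 29.9% higher. In family 43 Slc43a1 passed the filter through HEY1-3KR KI alone, which favoured a rise in it. The calls of Slc22a5 in family 22 and Slc26a6 in family 26 were lost in several settings, as given above. Within 50 kb of each other on the genome lay 5 pairs of the SLC genes, of which 1 (Slc16a11 and Slc16a13) was lower in both, 1 (Slc25a43 and Slc25a5) moved opposite ways, and 3 had a gene that was not called. Genes listed as lysosomal carriers also split, with 3 higher, 2 lower and 6 not called of 11 tested (median log2 fold change 0.00). The list includes Slc12a4 and Slc37a2, and where these proteins lie in the cells was not tested. The 2 lower ones were Slc48a1 and Slc38a7, and the 3 higher ones Slc15a3, Slc46a3 and Slc37a2, whose call depended on single libraries as given above.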

How the data were processed

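RNA of 6 MLEC libraries was sequenced, 3 per genotype. The authors deposited FPKM values in 1 table of gene entries, per the file headers. StringTie 1.3.3b, HISAT2 2.1.0, FastQC 0.19.7 and SAMtools 1.9, with the build mm10, appear in the submitters' processing notes. No source used here gives the gene annotation, the strand setting or how multi-mapped reads were counted. Each column of FPKM is relative to its library (column sums 258650 to 265967), so abundant genes that rise lower the others. Read totals are not given. Among 2396 genes with a single transcript in GENCODE, 46.1% to 57.8% of low values came within 0.1 of whole multiples of the best step. An even spread gives 20% for a step fixed beforehand, but the best step was picked for its high share, so the 2 cannot be compared. With many low values off these multiples, whole reads were not recovered, and no test on counts was made.

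The 11432 entries that reached 1 FPKM in 3 or more of the 6 libraries were fitted with limma 3.58.1 (R 4.3.3) on log2(FPKM + 1) with a variance trend, two-sided, no covariates, Benjamini-Hochberg adjustment over all of them and a threshold of 0.05. Log2 fold changes understate the change of low genes. Folds are ratios of mean FPKM. The fit was tested on simulated data. Substrate classes follow the family number with listed exceptions, and Slc4a1ap was moved to the genes that are no carriers after the table was seen. Named are, per class, up to 3 largest rises and 3 largest falls without overlap and the most abundant gene, those past the filter in 1 genotype only, those near the filter, and list members, and further genes named in the text were chosen after their values were seen. The results of some members are not reported here, and these genes stay in the counts. Members, lists and tests were chosen with earlier results of these data known. Positions and promoters are from RefSeq on GRCm38.p6, the assembly of mm10, matched by gene ID for 184 genes. Tables and figures used Python 3.11.15, pandas 2.3.3, numpy 2.4.6 and matplotlib 3.10.9. Alternatives were the pseudocount, the filter, 2 scalings, the variance trend, a replicate block, a fold limit and leaving out each library.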

Additional observations from a re-analysis of the deposited data

How the results depend on the processing

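The number of SLC genes called higher was 60 and called lower 51, and both stayed within 1.5 times of these under each alternative but the fold limit. Higher and lower counts were 59 and 50 with a pseudocount of 0.1 FPKM, 55 and 45 with no filter on low values, 55 and 46 with at least 1 FPKM in all 6 libraries (174 SLC genes left), 53 and 56 with median-of-ratios scaling, 50 and 60 with quantile normalization, and 59 and 52 without limma's variance trend. With any single library left out the higher count lay between 52 and 56 and the lower count between 45 and 48. Also requiring a change of 1.5-fold or more left 7 higher and 14 lower. With the replicate number as a block the counts were 59 and 51. Under the block Slc30a7, Slc35a1, Slc37a2 and Slc9a4 lost their calls (limma adjusted p = 0.0606 to 0.0889), Slc35f6 and Slc50a1 were called lower and Slc9a3r2 higher (limma adjusted p = 0.0102 to 0.0457). Deviations of same-numbered libraries from their genotype means correlated at -0.191, 0.254 and -0.272, and not every library correlated best with its own number. HEY1-3KR KI replicate 3 correlated best with HEY1-WT KI replicate 1 (0.381), and HEY1-3KR KI replicate 1 with HEY1-WT KI replicate 3 (0.265). With 3 libraries per genotype these deviations depend on each other, so whether libraries were paired, by number or otherwise, could not be settled. Over all 184 SLC genes, 90 of the 111 calls held in every setting that tested the gene, 21 were lost in at least 1 setting and 20 of these without some single library. Of 98 SLC genes named by rule 86 kept their direction and their side of the threshold in each setting, 12 crossed the threshold in at least 1, and none reversed. The deposited FPKM carry no read totals, so counting error, which weighs most on genes near 1 FPKM, could not be separated from other spread.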

Other observations

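Carriers that do not bear an Slc symbol were measured in the same libraries. Of 14 listed SLCO genes, the organic anion carriers, 9 had an entry and 3 passed the filter. Slco2b1, a carrier of steroid sulfates and thyroid hormones, was 1.82-fold higher in HEY1-3KR KI, at 9.35 ± 0.389 FPKM in HEY1-3KR KI and 5.13 ± 0.302 FPKM in HEY1-WT KI (SD, n = 3; limma, adjusted p = 5.58e-06). Slco3a1 was 1.34-fold higher, at 5.61 ± 0.242 FPKM in HEY1-3KR KI and 4.19 ± 0.319 FPKM in HEY1-WT KI, and Slco2a1, the prostaglandin carrier of lung endothelium, was not called, at 12.04 ± 0.0222 FPKM in HEY1-3KR KI and 11.99 ± 0.778 FPKM in HEY1-WT KI. Of 17 tested carriers under other names 2 were higher (11.8%), 4 lower (23.5%) and 11 not called, beside 29.9% higher and 23.4% lower of all genes tested. Ucp2, a mitochondrial carrier that lowers the proton gradient, read 57.6, 56.1 and 56.4 FPKM in HEY1-3KR KI, against 33.1, 33.3 and 32.5 FPKM in HEY1-WT KI, 1.72-fold higher without overlap. Spns2, which exports sphingosine-1-phosphate from endothelium, read 4.78, 4.73 and 4.67 FPKM in HEY1-3KR KI, against 2.48, 2.91 and 2.399 FPKM in HEY1-WT KI, 1.82-fold higher. Ctns, the cystine exporter of lysosomes, was 1.28-fold lower, and Mfsd6, Mfsd1 and the pyruvate carrier subunit Mpc1 were also lower. The call of Mfsd1 was lost without HEY1-3KR KI replicates 1, 2 or 3 or HEY1-WT KI replicates 1 or 2 (limma adjusted p = 0.053 to 0.103), and without limma's variance trend (limma adjusted p = 0.0615) and that of Mpc1 without HEY1-3KR KI replicate 2 or HEY1-WT KI replicates 1 or 3 (limma adjusted p = 0.052 to 0.0722).

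Of 12 tested accessory proteins and regulators of carriers 2 were higher, 7 lower and 3 not called (median log2 fold change -0.17), beside 29.9% higher and 23.4% lower among all genes tested. Emb (embigin), a chaperone of monocarboxylate carriers, read 12.1, 11.6 and 11.3 FPKM in HEY1-3KR KI, against 3.93, 4.23 and 4.66 FPKM in HEY1-WT KI, 2.73-fold higher (limma, adjusted p = 4.9e-07). Its relative Bsg (basigin), the partner of MCT1 and MCT4, was not called, at 229 ± 6.12 FPKM in HEY1-3KR KI and 238 ± 6.99 FPKM in HEY1-WT KI. Nedd4l, a ubiquitin ligase that removes sodium carriers and channels from the surface, was 1.64-fold lower, and Ahcyl1 (IRBIT), an activator of sodium bicarbonate cotransport, 1.39-fold lower. Nfat5, the factor of the osmotic response, was 1.296-fold higher, at 3.03 ± 0.229 FPKM in HEY1-3KR KI and 2.34 ± 0.284 FPKM in HEY1-WT KI, and its call was lost without HEY1-3KR KI replicate 2 (limma adjusted p = 0.0521). Among the 7 lower genes the call of Wnk1, a kinase that controls chloride cotransporters, was lost without HEY1-3KR KI replicates 1 or 3 or HEY1-WT KI replicates 2 or 3 (limma adjusted p = 0.0942 to 0.124), and without limma's variance trend or with no filter on low values (limma adjusted p = 0.0547 to 0.069).

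Of the 144 Slc genes under the filter 6 were at 0 in every library and 12 had a mean of at least 0.5 FPKM. In these 12 stands Slc2a6, which read 1.28, 0.9302 and 1.49 FPKM in HEY1-3KR KI, against 0.487, 0.554 and 0.419 FPKM in HEY1-WT KI. Of the 11 Slc genes set aside by name 7 were higher (63.6%), 2 lower (18.2%) and 2 not called. Among all genes tested 29.9% were higher and 23.4% lower. The higher ones include a gene that passed the filter through HEY1-3KR KI alone.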
